A study of Mus musculus with 37 samples.

Results

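The enzymes that add methyl groups to lysine 4 of histone H3 (H3K4) and those that remove them from H3K4 or from lysine 27 (H3K27) were followed through oocyte maturation, the first cleavage and the early egg cylinder of the mouse, with and without maternal Bap1. The set was chosen by gene symbol and holds 10 of the 55401 genes listed. It comprises 6 catalytic subunits of the COMPASS complexes (Kmt2a, Kmt2b, Kmt2c, Kmt2d, Setd1a and Setd1b), the H3K4 demethylases Kdm5a and Kdm5b, and the H3K27 demethylases Kdm6a (UTX) and Kdm6b (JMJD3).

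COMPASS complexes are built on a shared core of WDR5, RBBP5, ASH2L and DPY30, and each takes 1 methyltransferase. SETD1A and SETD1B place most trimethylation of H3K4 at active promoters, KMT2A (MLL1) and KMT2B (MLL2) act at selected promoters, and KMT2C (MLL3) and KMT2D (MLL4) place monomethylation at enhancers. KMT2B is the enzyme that deposits broad H3K4 trimethylation in growing oocytes, and KDM5 enzymes take part in removing that broad mark at the 2-cell stage. KDM6 enzymes oppose Polycomb repressive complex PRC2, while BAP1 removes the ubiquitin that PRC1 attaches to histone H2A. KDM6A is itself a subunit of the KMT2C and KMT2D complexes.

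Early stages were profiled as total RNA in 26 libraries. These were fully grown oocytes, eggs arrested at metaphase II (MII), late 1-cell embryos and late 2-cell embryos, each with 3 knockout and 2 control libraries, plus 3 and 3 of early 2-cell embryos. Controls came from Bap1flox/flox females. Knockouts came from Gdf9-iCre, Bap1flox/flox females, in which Cre driven by the oocyte gene Gdf9 removes the floxed allele in oocytes. The 1-cell and 2-cell embryos were sired by B6 males. A second table holds 11 poly(A) libraries of embryonic day 6.5 from the same maternal genotypes crossed to PWK males, with epiblast and visceral endoderm at 2 control and 2 knockout libraries and extraembryonic ectoderm at 1 control and 2 knockout libraries. Embryos of either cross received a paternal allele from a male without the transgene, so the deletion in them is maternal. The labels do not say that libraries came from separate animals, so every p-value measures the spread between these libraries, which may be technical.

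Values are FPKM (fragments per kilobase scaled to the size of the library), a scale on which levels of different genes can be compared per length. The number of reads behind each value is unknown. Summed FPKM ran from 300668 to 430784 among total RNA libraries and from 593705 to 704522 among poly(A) libraries, and 10353 to 12459 genes reached 1 FPKM in a library. In total RNA the entry Gm23935 alone made up 5.98% to 23.1% of the sum. In late 2-cell libraries its share was 20.2% and 23.1% in control and 16.5%, 17.3% and 15.3% in knockout. The part of this entry in the results was not tested. Differences were tested with limma on log2(FPKM + 1), which understates changes of low genes, and a gene is said to rise or fall only at a Benjamini-Hochberg adjusted p under 0.05 over all genes kept in the fit. All log2 fold changes below are on that scale, with their standard errors. In GENCODE M21 (GRCm38), Kmt2b lies at chr7:30568858-30588726, Kdm5a at chr6:120364124-120444574, Kdm5b at chr1:134560171-134635285, Kdm6a at chrX:18162575-18279936 and Kdm6b at chr11:69398508-69413675. In total RNA, 9 of the 10 members passed the filter of 1 FPKM in at least 2 libraries. Kmt2a did not, with 0.0295 to 0.717 FPKM in the 26 libraries. All 10 passed in the poly(A) table. In these bulk samples, fewer cells of a type and less RNA per cell cannot be told apart, and FPKM carries no information on the total RNA per oocyte or embryo. Whether control and knockout libraries overlapped was read only for Bap1, the members and their pathway genes. The share of all genes without overlap was not computed. Groups this small can separate by chance, so a lack of overlap describes the values and adds no support to a call.

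Bap1 itself was 16.3 and 29.2 FPKM in control oocytes against 4.98, 3.76 and 4.49 in knockout oocytes. Its log2 fold change was -2.09 ± 0.16 there, -2.40 ± 0.14 in eggs, -2.09 ± 0.16 in late 1-cell, -1.77 ± 0.27 in early 2-cell and -1.04 ± 0.26 in late 2-cell embryos (limma adjusted p between 9.49e-11 and 0.00347). Knockout libraries were below every control library at all 5 stages. At embryonic day 6.5, where a paternal allele is present, mean Bap1 was 27.8 FPKM in knockout against 18.4 in control epiblast, 18.9 against 14.8 in visceral endoderm and 23.6 against 21.8 in extraembryonic ectoderm, with no call. The oocyte markers Gdf9, Bmp15, Zp3, Zp2 and Oosp1 were all above 1 FPKM in each total RNA group. Of 8 granulosa and cumulus markers, only Cyp19a1 reached 1 FPKM in control oocytes. The summed list was 6.24 to 7.74 FPKM in control and 2.36 to 2.53 in knockout oocytes, with Ptx3 and Tnfaip6 at 0. The same sum was 4.76 to 6.02 FPKM in control and 1.39 to 1.77 in knockout eggs. In early 2-cell embryos it was 4.36 to 6.06 in control and 1.49 to 1.95 in knockout libraries. The part of this list in the oocyte results was not tested. Marker sums of each day 6.5 lineage were highest in the lineage named by the labels. Of the epiblast markers, Pou3f1 was 52.2 to 124.9 FPKM in epiblast and 67.6 to 75.1 in extraembryonic ectoderm. Fgf5 was 35.5 to 102.6 FPKM in epiblast and 8.65 to 38.5 in visceral endoderm. The other markers of these lineages were higher in their own lineage without overlap. Of parietal endoderm and ectoplacental cone markers, Sparc was 406 to 606 FPKM in visceral endoderm and Ascl2 55.7 to 60.0 in extraembryonic ectoderm.

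The regulatory sequence upstream of Kdm5b and Kdm6a is shown because these members had the largest rise and the largest fall between early and late 2-cell controls (below). RefSeq's promoter table (GRCm38.p6) matched 6 of the 10 members, and the 250 bases before the annotated start are given 5′ to 3′ on the gene's strand. Capitals mark matches to GGGCGG, the GC box, or to the E-box CACGTG, on either strand.
Kdm5b, chr1:134559928-134560177, plus strand: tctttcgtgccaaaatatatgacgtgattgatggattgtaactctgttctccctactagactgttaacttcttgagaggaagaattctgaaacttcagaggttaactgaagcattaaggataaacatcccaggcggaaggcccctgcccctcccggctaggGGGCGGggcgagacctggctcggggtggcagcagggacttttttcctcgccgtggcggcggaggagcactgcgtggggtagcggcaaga
Kdm6a, chrX:18162325-18162574, plus strand: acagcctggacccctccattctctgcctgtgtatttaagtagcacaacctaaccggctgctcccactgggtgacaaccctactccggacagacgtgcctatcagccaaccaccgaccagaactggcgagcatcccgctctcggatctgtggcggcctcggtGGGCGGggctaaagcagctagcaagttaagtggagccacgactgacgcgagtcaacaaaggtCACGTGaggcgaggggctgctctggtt
The Kdm5b stretch holds 13 CpG dinucleotides and 1 GC box. The Kdm6a stretch holds 15 CpG, 1 GC box and 1 E-box. On either strand, the GC box occurs in 32.7% of 32851 mouse promoters of this length and the E-box in 6.02%, and the median promoter has 6 CpG. The TATA sequence TATAAA occurs in 12.4% of promoters, the CCAAT box in 33.8%, the ETS sequence CCGGAAG in 6.91%, the homeobox sequence GGATTA in 6.25% and the palindromic NRF1 motif in 0.782%, and neither stretch held any of them. These matches describe the letters in the window only.

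The members were grouped into 3 broad patterns in control development. Methyltransferases other than Kmt2a were abundant in oocytes and did not drop as a group. KDM5 genes were near absent until the 2-cell stage and then rose steeply. KDM6 genes were abundant in oocytes and fell in late 2-cell embryos. The grouping is not sharp, since Kmt2b also fell between early and late 2-cell controls. Its log2 fold change was -0.55, beside -0.45 for Kdm6b and -1.37 for Kdm6a. Summed over the 6 methyltransferases, control FPKM went from 196 ± 12.0 (SD, n = 2) in oocytes to 321 ± 20.9 (n = 2) in late 2-cell embryos. Summed Kdm5a and Kdm5b went from 1.29 ± 0.0388 to 74.7 ± 4.28. Summed Kdm6a and Kdm6b went from 117 ± 3.01 to 66.0 ± 6.47. By level, control oocytes had Kmt2c first at 74.8 FPKM, followed by Kdm6b at 67.0, Kmt2d at 50.5, Kdm6a at 50.1, Kmt2b at 28.6, Setd1a at 27.8, Setd1b at 13.9, Kdm5a at 0.909, Kdm5b at 0.383 and Kmt2a at 0.0752. Libraries of Kmt2d and Kdm6a overlapped, as did those of Kmt2b and Setd1a. In late 2-cell controls Kdm5b had moved to the third place at 57.1 FPKM, behind Kmt2c at 146 and Kmt2d at 94.7, and Setd1b at 14.6 and Kmt2a at 0.497 were the lowest.

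**Figure D1:**
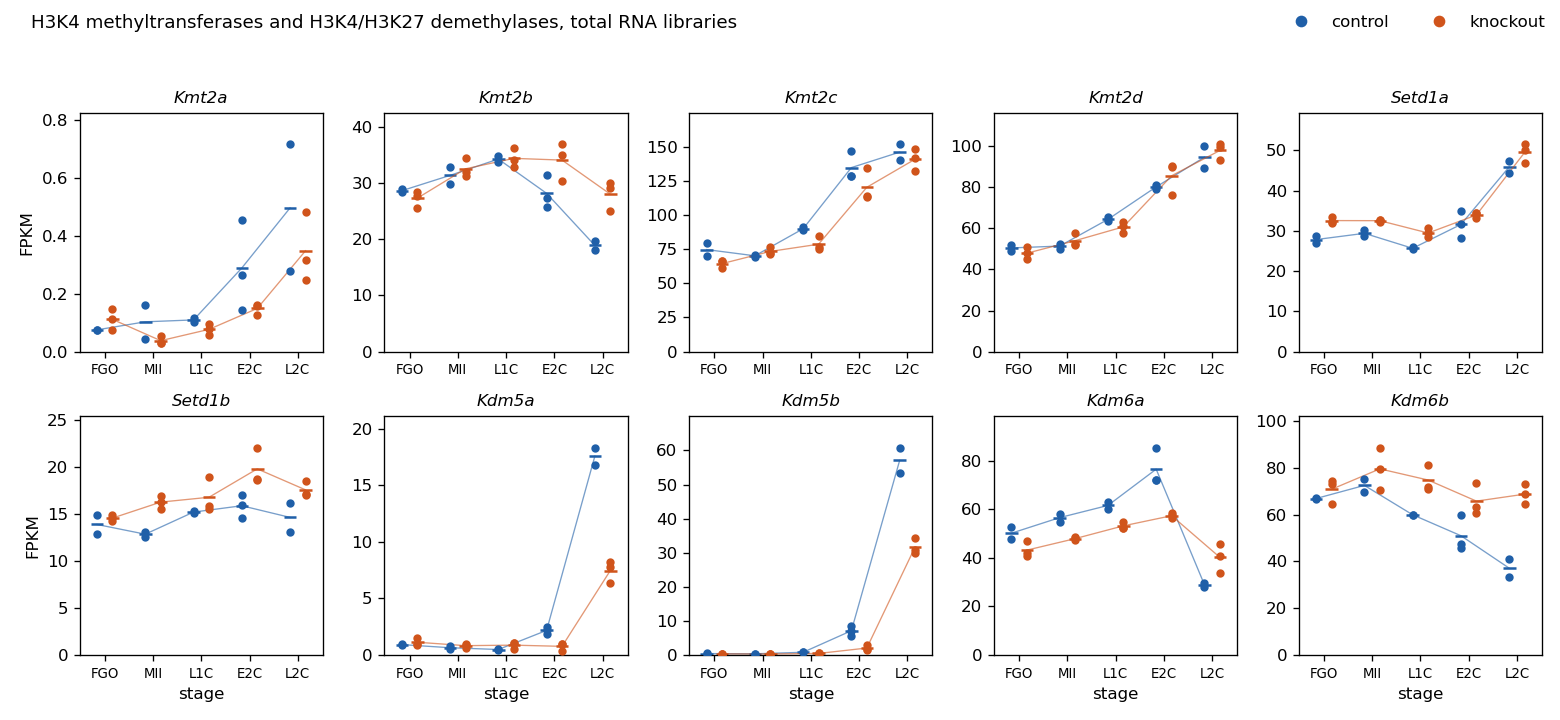
FPKM of each gene (one panel per gene, linear axis starting at 0) in every total RNA library, by stage from fully grown oocytes (FGO) and MII eggs to late 1-cell (L1C), early 2-cell (E2C) and late 2-cell (L2C) embryos. Blue points are control and orange points knockout libraries, horizontal bars are group means and thin lines join them. Kdm5a and Kdm5b are near 0 until the 2-cell stage and lower in knockout libraries there, while Kdm6b and Kmt2b are higher in knockout late 2-cell libraries.

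Between control oocytes and eggs, limma called none of the 9 members, where 5.39% of 15184 genes were called (1.3% higher, 4.1% lower), and only Kdm6a had an unadjusted p under 0.05. From eggs to late 1-cell embryos (25.4% of all genes called, 9.6% higher and 15.8% lower), 3 members rose and 2 fell. Kmt2c and Kmt2d rose by 0.35 and 0.32, and both were called in every alternative analysis. The rise of Kdm5b (0.43) and the falls of Kdm6b (-0.27) and Setd1a (-0.19) were not. Kdm5b was 0.290 and 0.331 FPKM in control eggs and 0.725 and 0.795 in control late 1-cell libraries. All of these are under 1 FPKM, where the reads behind a value are unknown. Kdm5b passed the filter only through its 2-cell libraries. Without 1 library, limma lost Kdm6b for any of the 4 (adjusted p between 0.0695 and 0.220), Kdm5b for egg replicate 1 or late 1-cell replicate 2 (0.0625 and 0.0907), and Setd1a for egg replicate 2 or either late 1-cell replicate (0.0658 to 0.154). From late 1-cell to early 2-cell controls (47.2% of all genes called, 18.1% higher and 29.1% lower), 6 members rose and 1 fell. Kdm5b rose most, by 2.18, from 0.725 and 0.795 FPKM to 8.57, 7.09 and 5.59. Kdm5a rose by 1.10, from 0.486 and 0.462 FPKM to 2.48, 2.17 and 1.84. Kmt2c, the enhancer methyltransferase MLL3, rose by 0.58, from 89.0 and 91.0 FPKM to 129, 129 and 147. The smaller rises of Kmt2d, Setd1a and Kdm6a were 0.31, 0.28 and 0.31, and Kmt2b fell by 0.28. These 4 calls depended on the analysis: with libraries scaled to 1 total, Kmt2d, Setd1a and Kdm6a were lost (adjusted p between 0.370 and 0.435), and the fall of Kmt2b was lost without any of 4 of the 5 libraries, all but control early 2-cell replicate 3 (limma adjusted p between 0.0565 and 0.175). Setd1a was also lost without control early 2-cell replicate 1 (0.0720), and Kdm6a without control late 1-cell replicate 1 (0.0795) or control early 2-cell replicate 3 (0.133).

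Between early and late 2-cell controls (51.7% of all genes called, 29.2% higher and 22.5% lower), 3 members rose and 3 fell. Kdm5b rose by 2.86 to 60.9 and 53.3 FPKM, and Kdm5a rose by 2.56 to 16.8 and 18.3 FPKM. No fold against oocytes is given, since both genes were under 1 FPKM in control oocytes and the reads behind such values are unknown. Setd1a rose by 0.53 to 47.3 and 44.5 FPKM. Kdm6a fell by 1.37, from 72.0, 72.2 and 85.4 FPKM to 29.6 and 28.2, a 2.65-fold drop in mean FPKM. Kmt2b fell by 0.55, from 25.8, 27.3 and 31.4 FPKM to 19.7 and 18.1. Kdm6b fell by 0.45 to 41.0 and 33.3 FPKM, a call lost without control early 2-cell replicate 3 (limma adjusted p 0.137) or control late 2-cell replicate 2 (0.246). Consecutive steps share a control group, so the rise and fall of a gene across them are not independent.

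Both KDM5 demethylases were lower in knockouts at both 2-cell stages. In early 2-cell embryos Kdm5b was 8.57, 7.09 and 5.59 FPKM in control and 2.85, 1.36 and 1.81 in knockout libraries. Every knockout library was below every control library, and Kdm5b fell by 1.44 ± 0.20 on the log2 scale (limma adjusted p = 6.64e-05), a call that held in all 15 alternative analyses. Kdm5a was 2.48, 2.17 and 1.84 FPKM in control and 0.939, 0.351 and 0.971 in knockout libraries, again without overlap. It fell by 0.87 ± 0.26 (adjusted p = 0.0303), but the call was lost in 7 of 14 alternatives, among them those without control replicate 1 (adjusted p = 0.126), control replicate 2 (0.0840) or knockout replicate 2 (0.142).

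At the late 2-cell stage Kdm5a was 16.8 and 18.3 FPKM in control and 7.80, 6.35 and 8.24 in knockout libraries and fell by 1.14 ± 0.25 (limma adjusted p = 0.00113). Kdm5b was 60.9 and 53.3 FPKM in control and 34.4, 29.8 and 30.9 in knockout libraries and fell by 0.83 ± 0.19 (adjusted p = 0.0017). The groups did not overlap for either gene. The Kdm5b call was lost with a pseudocount of 0.1 (adjusted p = 0.0871) and with libraries scaled to 1 total (0.0830). In knockout oocytes Kdm5b was 0.275 to 0.294 FPKM and Kdm5a 0.864 to 1.49, so late 2-cell knockouts were above them for both genes. In oocytes and eggs neither was called. In late 1-cell embryos Kdm5b was 0.725 and 0.795 FPKM in control and 0.314, 0.527 and 0.410 in knockout libraries, without overlap but also without a call. Late 1-cell Kdm5a had the opposite sign, at 0.486 and 0.462 FPKM in control and 1.02, 0.478 and 1.08 in knockout libraries, groups that overlapped, and was not called either (log2 difference 0.32 ± 0.15, unadjusted p = 0.0486, limma adjusted p = 0.168).

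The interaction test compared the knockout effect between consecutive stages. The effect in early 2-cell minus that in late 1-cell embryos was -1.13 ± 0.23 for Kdm5b (limma adjusted p = 0.00919) and -1.19 ± 0.30 for Kdm5a (0.0327), which includes the late 1-cell value of 0.32, where 3.35% of genes were called, 1.28% upward and 2.07% downward. Both calls were lost with a pseudocount of 0.1, with scaling to 1 total, with both stages fitted alone and with the replicate number as a block. That of Kdm5a was also lost without any 1 of 7 of the 11 libraries (adjusted p between 0.0502 and 0.113): both late 1-cell controls, late 1-cell knockout replicates 1 and 3, early 2-cell control replicates 1 and 2, and early 2-cell knockout replicate 2. Neither KDM5 gene was called between early and late 2-cell embryos.

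Kdm6a was the member called in most knockout comparisons, lower in knockouts at the first 4 stages and higher at the last. In oocytes it was 47.6 and 52.7 FPKM in control and 41.9, 46.8 and 40.9 in knockout libraries, which gave -0.21 ± 0.07 (limma adjusted p = 0.0492). In eggs it was 58.3 and 54.9 against 48.4, 48.0 and 47.3 FPKM, a change of -0.23 ± 0.06 (adjusted p = 0.012). In late 1-cell embryos it was 60.1 and 63.1 against 52.4, 54.7 and 52.4 FPKM, a change of -0.21 ± 0.07 (adjusted p = 0.0494). In early 2-cell embryos it was 72.0, 72.2 and 85.4 against 58.4, 56.2 and 57.5 FPKM, a change of -0.41 ± 0.12 (adjusted p = 0.0313). Control and knockout libraries did not overlap at any of these stages, a separation that groups this small can show by chance. The falls were small and close to the threshold. The oocyte call was lost in 12 of 14 alternatives, including each control and knockout replicates 1 and 3 left out (adjusted p between 0.0546 and 0.434). The late 1-cell call was lost in 13 of 14, including each library left out (0.0802 to 0.311), and the early 2-cell call in 11 of 15, including each library left out (0.0542 to 0.134). The egg call was lost in 3 of 14, among them without control replicate 1 (0.160).

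In late 2-cell embryos the direction was the opposite. Kdm6a was 29.6 and 28.2 FPKM in control and 33.8, 45.8 and 40.9 in knockout libraries, all 3 above both controls, and rose by 0.45 ± 0.12 on the log2 scale (limma adjusted p = 0.00455). By mean FPKM, Kdm6a dropped 2.65-fold between early and late 2-cell controls and 1.43-fold between the same stages in knockouts. The interaction of 0.86 ± 0.17 tested this difference (adjusted p = 0.00107, where 18.9% of genes were called, 9.55% upward and 9.37% downward). It held in all 20 alternatives, as the late 2-cell call did in all 14. Kdm6a is X-linked, and its Y-linked copy Uty had a mean of 2.361 FPKM in control and 1.035 in knockout late 2-cell libraries. The part of embryo sex in the Kdm6a values was not tested.

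Kdm6b, the other H3K27 demethylase, rose in knockout late 1-cell and late 2-cell embryos. At the first of these stages it was 60.0 and 60.0 FPKM in control and 81.3, 72.1 and 71.2 in knockout libraries and rose by 0.31 ± 0.09 (limma adjusted p = 0.0245), a call lost without either control (0.125 without replicate 1 and 0.136 without replicate 2) or knockout replicate 1 (0.0753). Early 2-cell Kdm6b was 45.6, 47.6 and 59.9 against 60.7, 73.8 and 63.1 FPKM. These groups did not overlap either, but the log2 fold change of 0.37 did not pass (adjusted p = 0.147, and 0.0137 to 0.417 over the alternatives). In late 2-cell embryos it was 41.0 and 33.3 against 64.7, 68.7 and 73.1 FPKM and rose by 0.88 ± 0.15 (adjusted p = 0.000143), with the call kept in all 14 alternatives. Late 2-cell knockouts thus held a mean of 68.8 FPKM, beside 70.9 in knockout oocytes, whereas control Kdm6b went from 67.0 in oocytes to 37.1. Summed KDM6 FPKM was 109 ± 9.09 (SD, n = 3) in knockout and 66.0 ± 6.47 (n = 2) in control late 2-cell embryos.

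Among the methyltransferases, Kmt2b changed most. In late 2-cell embryos it was 19.7 and 18.1 FPKM in control and 25.0, 29.1 and 29.9 in knockout libraries. All knockout libraries were above both controls, and Kmt2b rose by 0.54 ± 0.12 (limma adjusted p = 0.00112), kept in all 14 alternatives. Early 2-cell Kmt2b was 25.8, 27.3 and 31.4 against 35.0, 36.9 and 30.4 FPKM, groups that overlapped, with a change of 0.27 that did not pass (adjusted p = 0.174). At the 3 earlier stages its libraries overlapped between genotypes and it was not called.

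Setd1a was higher in knockouts before the 2-cell stage. It was 26.9 and 28.8 FPKM in control and 33.4, 32.0 and 32.3 in knockout oocytes (0.22 ± 0.05, limma adjusted p = 0.00816). In eggs it was 28.6 and 30.2 against 32.8, 32.7 and 32.2 FPKM (0.14 ± 0.05, adjusted p = 0.0486), and in late 1-cell embryos 25.95 and 25.4 against 29.4, 30.7 and 28.4 FPKM (0.19 ± 0.05, adjusted p = 0.0187). The knockout libraries were above the controls at all 3 stages and overlapped with them at the 2-cell stages. Leaving out 1 library ended the call in oocytes for control replicate 1 (0.152), in eggs for each library but knockout replicate 3 (0.0810 to 0.356), and in late 1-cell embryos for either control or knockout replicate 2 (0.0777 to 0.154). Setd1a values are uncertain in any case, because 52.3% of its exonic bases overlap other annotated genes and 51.2% of its 50-base words are also in Gm49388 on the same strand. Gm49388 was above 0.1 FPKM in 1 of the 26 total RNA libraries.

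Setd1b was called in eggs only, at 13.1 and 12.6 FPKM in control and 15.6, 16.3 and 16.9 in knockout libraries (0.32 ± 0.07, limma adjusted p = 0.00372), a call lost without control replicate 2 (0.0644). Its knockout libraries were also above all controls at the 3 later stages without a call, for example 14.6, 16.002 and 17.1 against 18.6, 18.7 and 22.1 FPKM in early 2-cell embryos (0.30, adjusted p = 0.183). Kmt2c was lower in knockout oocytes, at 70.1 and 79.4 against 61.2, 66.1 and 66.2 FPKM (-0.21 ± 0.07, adjusted p = 0.0369), and in knockout late 1-cell embryos, at 89.0 and 91.0 against 84.5, 75.1 and 76.5 FPKM (-0.19 ± 0.07, adjusted p = 0.0484). In the eggs between these stages the order was reversed without a call, at 69.4 and 71.0 against 71.4, 72.0 and 76.9 FPKM. The oocyte call of Kmt2c was lost in 11 of 14 alternatives, including 4 of the 5 libraries left out in turn, all but control replicate 1 (0.0572 to 0.463), and the late 1-cell call in 12 of 14, including 4 of the 5, all but knockout replicate 1 (0.118 to 0.251). Kmt2d, the most closely related enzyme, was not called at any of the 5 stages (smallest adjusted p 0.437). Its late 2-cell values were 100 and 89.3 FPKM in control and 101, 93.1 and 99.8 in knockout libraries. Summed over the 6 methyltransferases, late 2-cell knockouts stood at 334 ± 9.15 FPKM (SD, n = 3) beside 321 ± 20.9 (n = 2) in controls.

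**Figure D2:**
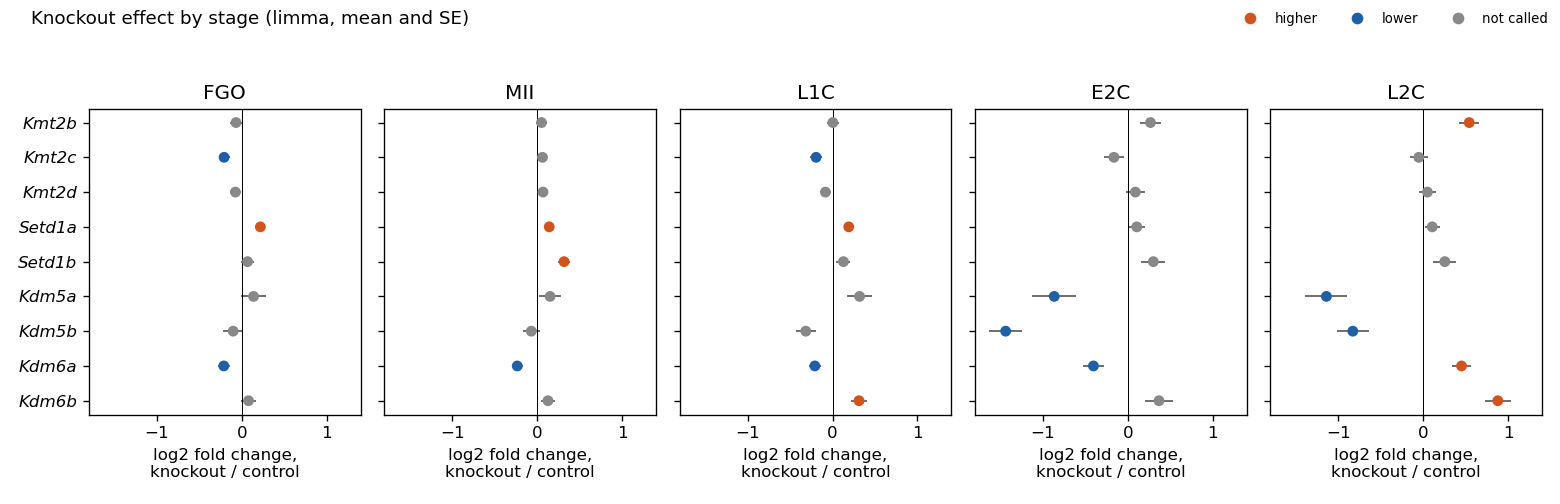
Log2 fold change of FPKM + 1, knockout over control, for the 9 members tested at each total RNA stage (limma estimate, bars are SE). Orange points were called higher, blue points lower (adjusted p under 0.05), and grey points were not called. Kdm5a and Kdm5b lie below 0 at both 2-cell stages, and Kdm6a crosses from below 0 in early 2-cell to above 0 in late 2-cell embryos.

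By count, 1 of the 9 members tested was called higher and 2 lower in knockout oocytes, where 3.91% and 9.97% of all genes were (13.9% in all). In eggs 2 were higher and 1 lower, beside 6.57% and 10.2% (16.8%). Late 1-cell embryos had 2 higher and 2 lower, beside 7.6% and 10% (17.6%). None was higher and 3 were lower in early 2-cell embryos, beside 6.2% and 7.28% (13.5%). Late 2-cell embryos had 3 higher and 2 lower, beside 17% and 17.2% (34.2%). The median log2 fold change of the members lay between -0.07 and 0.11 at these stages, and that of all genes between 0 and 0.03. Members that were not called had log2 fold changes between -0.32 and 0.37. The knockout effect of no member differed between oocytes and eggs (0% of genes called by limma, 2 members with an unadjusted p under 0.05) or between eggs and late 1-cell embryos (0.198% of genes, 1 such member).

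Markers of stage moved with these results. The 4 genes of 2-cell genome activation (Zscan4c, Zscan4d, Zfp352 and Usp17lc) summed to 174 to 240 FPKM in control and 70.7 to 156 in knockout early 2-cell libraries. In late 2-cell libraries they summed to 75.3 to 79.8 in control and 246 to 309 in knockout. The 5 oocyte markers summed to 440 to 461 FPKM in control and 721 to 848 in knockout late 2-cell libraries, and none was at 0. Their part in the differences of the KDM5, KDM6 and Kmt2b genes was not tested.

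The genes whose pattern over the 10 total RNA groups was most like that of Kdm6a were Sytl4, Epb41l4a and Ica1, with Pearson r of 0.98, 0.98 and 0.97 among 9861 genes compared. Sytl4, which encodes a synaptotagmin-like protein, had a mean of 66.8 ± 1.88 FPKM in control and 47.5 ± 9.13 in knockout early 2-cell embryos (SD, n = 3 each), then 13.3 ± 0.859 (n = 2) and 19.5 ± 3.48 (n = 3) in late 2-cell embryos. Ica1 went from 76.7 ± 7.13 and 55.9 ± 2.61 to 17.9 ± 3.12 and 23.1 ± 2.61 FPKM in the same groups. The points share libraries, and r describes group means only.

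Genes of the wider pathway were read from a list of 20 COMPASS subunits and related demethylases, of which 19 passed the filter in total RNA and Kdm5d did not. Of these 19, 2 were called higher and 0 lower in oocytes, where 13.9% of all genes were called. In eggs it was 1 and 1 (16.8% of all genes), in late 1-cell embryos 1 and 0 (17.6%), and in early 2-cell embryos 3 and 1 (13.5%). In late 2-cell embryos 4 were higher and 3 lower, a share near the 34.2% of all genes. Rbbp5, a core subunit of every COMPASS complex, was the list gene that rose most at 3 stages. It was 29.5 ± 0.43 FPKM (SD, n = 2) in control and 37.8 ± 3.90 (n = 3) in knockout oocytes (0.34, limma adjusted p = 0.022). In late 1-cell embryos it was 31.3 ± 1.72 and 39.4 ± 1.22 FPKM (0.32, adjusted p = 0.029). Early 2-cell Rbbp5 was 9.16, 10.8 and 7.93 FPKM in control and 13.7, 22.0 and 17.0 in knockout libraries (0.83 ± 0.17, adjusted p = 0.00237), without overlap and kept in all 15 alternatives. The oocyte call was lost without either control or knockout replicate 3 (0.0745 to 0.154), and the late 1-cell call without either control or knockout replicate 2 (0.0827 to 0.229). In eggs Hcfc1, a SETD1 cofactor, rose most, from 10.8 ± 0.118 to 13.3 ± 0.558 FPKM (0.27, adjusted p = 0.0395), a call lost without each library but knockout replicate 3 (0.0553 to 0.199). Kdm1b, the H3K4 demethylase active in growing oocytes, fell most in eggs, from 62.2 ± 8.43 to 43.6 ± 2.74 FPKM (-0.50 ± 0.10, adjusted p = 0.000716, and 0.0517 without control replicate 2), and in early 2-cell embryos (-0.58 ± 0.18, adjusted p = 0.0399), where the call was lost without any 1 library (0.0540 to 0.124).

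The largest list changes were in late 2-cell embryos. Bod1l, a SETD1A-associated factor, was 32.1 and 26.5 FPKM in control and 8.65, 8.99 and 11.04 in knockout libraries and fell by 1.52 ± 0.15 (limma adjusted p = 2.01e-07). Dpy30, a core subunit, was 50.8 and 47.7 FPKM in control and 103, 117 and 105 in knockout libraries and rose by 1.12 ± 0.14 (adjusted p = 4.92e-06). Neither gene's groups overlapped, and both calls held in all 14 alternatives. Mean Dpy30 was lower in late than in early 2-cell embryos of both genotypes. It went from 190.9 to 49.27 FPKM in control and from 177.8 to 108.6 in knockout embryos. Of the other core subunits Wdr5 fell by 0.50 (adjusted p = 0.00126), and Rbbp5 and Ash2l were not called. The median over the list was -0.03, beside 0.03 for all genes.

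**Figure D3:**
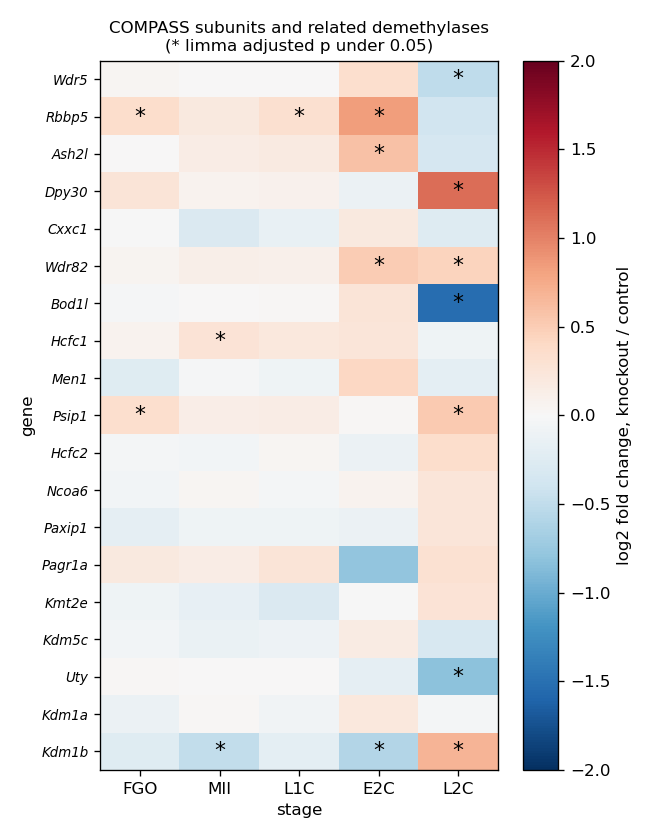
Log2 fold change of FPKM + 1, knockout over control, for the 19 COMPASS subunits and related demethylases tested, by total RNA stage (colour scale from blue, lower in knockouts, to red, higher). Asterisks mark an adjusted p under 0.05. Bod1l at -1.52 and Dpy30 at 1.12 in late 2-cell embryos are the strongest colours.

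At embryonic day 6.5 limma called 0 of 10 members between genotypes in epiblast, visceral endoderm or extraembryonic ectoderm, and 0 had an unadjusted p under 0.05. Over all 13914 genes, 0%, 0.00719% and 0% were called, and 469, 248 and 251 genes had an unadjusted p under 0.05. The extraembryonic ectoderm comparison assumes that its lone control library varies like the other groups. Over all members, the 95% intervals of the log2 fold changes reached from -1.90 to 2.19 in epiblast, -1.48 to 1.57 in visceral endoderm and -2.72 to 2.46 in extraembryonic ectoderm. The precision differed between genes. For Kdm5b the interval was -0.75 to 0.70 in epiblast, -0.67 to 0.78 in visceral endoderm and -1.46 to 0.32 in extraembryonic ectoderm. For Kdm5a the intervals were -0.59 to 2.19, -1.27 to 1.51 and -1.82 to 1.58 in the same order. The 2-cell changes of these genes were not set against the intervals. They come from another library type and, in early 2-cell embryos, from low values that the added 1 shrinks. Libraries of 1 group differed widely. Epiblast Kdm5a was 38.1 and 19.4 FPKM in control and 89.9 and 25.6 in knockout libraries, and Setd1a was 11.1 and 2.40 against 2.95 and 4.11 FPKM.

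The members were ordered differently in these poly(A) libraries, whose levels were not compared with total RNA because the library types differ. Kdm5a (8.10 to 89.9 FPKM over 11 libraries, median 19.4) and Kdm5b (4.68 to 33.4, median 7.62) had the highest medians. They were also first and second by mean in both genotypes of each lineage. Medians of the other 8 lay between 1.00 FPKM for Kmt2a and 5.04 for Kmt2b, and their order differed by lineage. The third place in controls was held by Setd1a in epiblast (11.1 and 2.40 FPKM), Kdm6b in visceral endoderm (3.33 and 4.84) and Kmt2b in extraembryonic ectoderm (7.22).

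Between lineages, limma called Kdm5b and Kdm5a, and the other 8 members did not pass. Kdm5b was 33.1 and 24.2 FPKM in control and 33.4 and 23.2 in knockout epiblast, 4.68 and 5.49 in control and 5.09 and 5.51 in knockout visceral endoderm, and 10.7 in control and 7.62 and 6.31 in knockout extraembryonic ectoderm. All epiblast libraries were above those of the other lineages. With genotypes weighted equally, the log2 difference of Kdm5b from epiblast was -2.23 ± 0.23 in visceral endoderm (limma adjusted p = 6.2e-05) and -1.59 ± 0.26 in extraembryonic ectoderm (0.00195), and both calls held in every alternative. Kdm5a was lower in visceral endoderm, at -1.46 ± 0.44 (adjusted p = 0.0256), a call lost without epiblast knockout replicate 1 (0.0618), epiblast control replicate 1 (0.0908), visceral endoderm knockout replicate 1 (0.0939) or visceral endoderm control replicate 1 (0.0995). These counts of 2 and 1 of 10 stand beside 38.4% and 19.6% of all genes (21.6% and 10.4% lower). Between both extraembryonic lineages 0 members were called (22.6% of genes), with 2 at an unadjusted p under 0.05. With the replicate number as a block, Kmt2a, Kmt2b and Kmt2d were called lower in visceral endoderm than in epiblast as well, and Kdm5a was called in all 3 lineage comparisons. The share of all genes called in that run was not recorded.

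**Figure D4:**
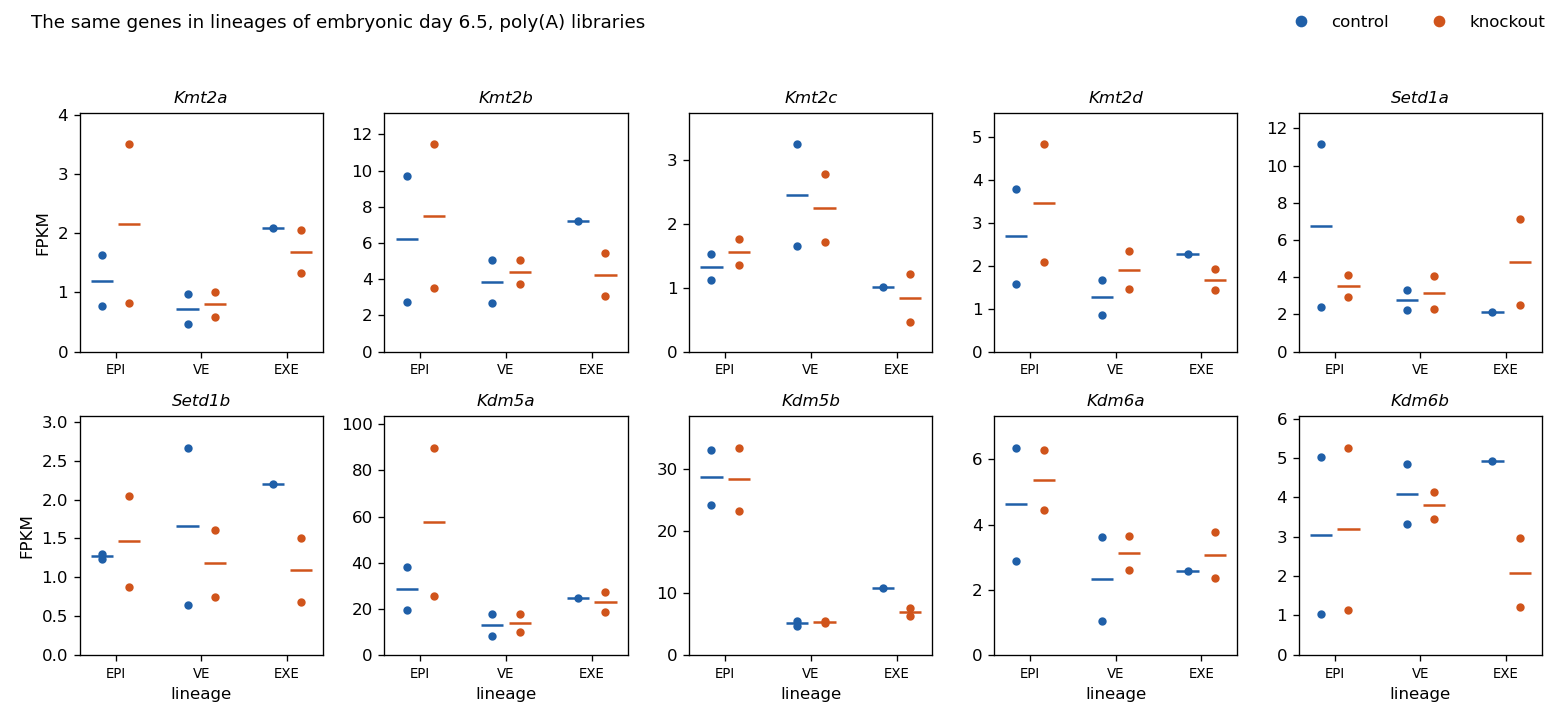
FPKM of the 10 genes in every poly(A) library of embryonic day 6.5, by lineage (epiblast EPI, visceral endoderm VE, extraembryonic ectoderm EXE), with blue control and orange knockout points and bars for group means. Each panel has its own linear axis from 0. Kdm5b separates epiblast, at 23.2 FPKM or more, from the other lineages, and libraries of 1 group lie far apart for Kdm5a, Setd1a and Kdm6b.

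Kdm6a is X-linked and has a Y-linked copy, Uty, while Kdm5c and Kdm5d are the X- and Y-linked KDM5 relatives. Uty was listed at 0 in control replicate 2 and knockout replicate 1 of epiblast and visceral endoderm and in knockout replicate 1 of extraembryonic ectoderm. It was 2.38 and 5.19 FPKM in the other epiblast libraries, 0.529 and 1.73 in those of visceral endoderm and 1.52 and 1.596 in those of extraembryonic ectoderm. Kdm5d was above 0 in the same 6 libraries, at 0.227 to 1.75 FPKM, and 0 in the same 5. Kdm6a in the libraries without Uty was 6.37 and 6.29 FPKM in epiblast, 3.61 and 3.64 in visceral endoderm and 3.79 in extraembryonic ectoderm. In those with Uty it was 2.89 and 4.44, 1.04 and 2.59, and 2.57 and 2.36 FPKM, lower in every lineage. Kdm5c was 1.79 to 7.69 FPKM and did not separate the libraries in this way. These libraries were grouped by the Y-linked signal itself, so no test was made. Each genotype has libraries of both kinds in epiblast and visceral endoderm, whereas the only extraembryonic control has Uty signal.

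**Figure D5:**
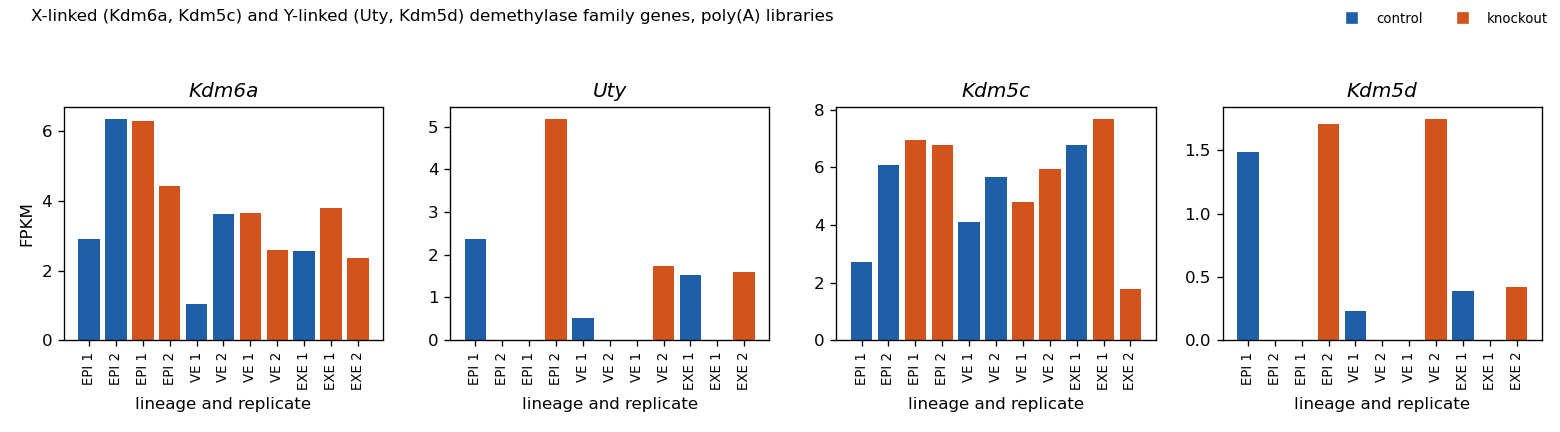
FPKM of X-linked Kdm6a and Kdm5c and Y-linked Uty and Kdm5d in each embryonic day 6.5 library, as bars from 0 by lineage and replicate, with control in blue and knockout in orange. Libraries with Uty at 0 have the higher Kdm6a in every lineage.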

How the data were processed

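The authors deposited FPKM in 2 tables of 55401 genes, 1 for 26 total RNA libraries and 1 for 11 poly(A) libraries. Per the submitters' processing notes, Trim Galore 0.6.6, STAR 2.7.9 and StringTie 2.1.7 were used with mm10. Their order, the annotation, the filters and the strand setting are not given in the sources used here, so overlapping and antisense genes cannot be separated. In the deposited column of control epiblast replicate 1, 1 FPKM value was slightly below 0 and was set to 0. All columns matched samples by name, and 0 were left over. No 2 libraries held identical values.

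Library depth cannot be read from FPKM, and no counting intervals were computed. The number of libraries limits the precision. Groups were taken from sample titles. A gene entered a fit if 2 or more of its libraries reached 1 FPKM, which left 15184 in total RNA and 13914 in poly(A). Contrasts of group means of log2(FPKM + 1) came from limma (version 3.58.1, R 4.3.3; moderated with a mean-variance trend), adjusted by Benjamini-Hochberg over all genes kept in each contrast, with a threshold of 0.05. The 26 total RNA libraries shared 1 fit with a variance factor per stage, because the stages differ in spread, and the 11 poly(A) libraries shared another. Alternatives were other pseudocounts, filters, scalings and weights, single stages, a replicate block and each library left out; a block across lineages was added after seeing the data. The procedure was also run on simulated data with normal spread and a spread factor per stage, as the fit assumes. That run cannot show how the fit behaves where these assumptions fail, and it is not used as support here.

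The members, the pathway list and the marker lists were chosen with earlier results of these data known. Named genes are the members, Bap1, the list gene that rose most and fell most in each knockout contrast, the sex-linked relatives at embryonic day 6.5 and the 3 genes most like the member called most often; Wdr5, Ash2l and, in the closing section, further list genes were named after their values were seen. Gene lengths and overlaps came from GENCODE M21 (GRCm38), in which 54349 identifiers have the same version.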

Additional observations from a re-analysis of the deposited data

Results flagged for a closer look

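By the limma interaction test, the knockout effect differed from late 1-cell to early 2-cell embryos for 2 of 9 members. It differed over that step for 0 of the 19 genes of the pathway list tested. Between early and late 2-cell embryos it differed for 1 member, and for 3 list genes upward and 4 downward, beside 18.9% of all genes. From late 1-cell to early 2-cell embryos, where 3.35% of 15184 genes were called, it moved down for Kdm5a (-1.19 ± 0.30, adjusted p = 0.0327) and Kdm5b (-1.13 ± 0.23, adjusted p = 0.00919). The Kdm5a call was lost in 11 of 19 alternatives and the Kdm5b call in 4 of 20.

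From early to late 2-cell embryos, where 18.9% of all genes were called, it moved up for Kdm6a (0.86 ± 0.17, limma adjusted p = 0.00107), which was lower in all 3 early 2-cell knockout libraries and higher in all 3 late 2-cell ones. It also moved up for Dpy30 (1.25 ± 0.21, adjusted p = 0.000245), Kdm1b (1.27 ± 0.25, adjusted p = 0.00125) and the chromatin reader Psip1 (0.51 ± 0.18, adjusted p = 0.048). Kdm1b was 60.4 ± 4.45 FPKM (SD, n = 3) in control and 40.0 ± 3.38 (n = 3) in knockout early 2-cell embryos, and 17.9 ± 1.20 (n = 2) and 29.5 ± 3.49 (n = 3) in late 2-cell embryos. The Psip1 call was lost in 15 of 20 alternatives.

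Over the same step the knockout effect moved down for the core subunits Rbbp5 (-1.22 ± 0.24, limma adjusted p = 0.00092), Ash2l (-0.92 ± 0.22, adjusted p = 0.00474) and Wdr5 (-0.84 ± 0.16, adjusted p = 0.000792) and for Bod1l (-1.77 ± 0.22, adjusted p = 1.04e-05). Rbbp5 was 17.6 ± 4.21 FPKM in knockout and 9.31 ± 1.46 in control early 2-cell embryos (SD, n = 3 each), and 6.06 ± 1.27 (n = 3) and 8.16 ± 0.889 (n = 2) in late 2-cell embryos. The calls of Dpy30, Kdm1b, Rbbp5, Ash2l, Wdr5 and Bod1l held in all 20 alternatives.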

How the results depend on the processing

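No member or list gene called in the report changed direction under any alternative run. Counts of members called did change. In oocytes 3 became 1 with no filter, with scaling to 1 total (TPM), with median centring or with no trend, and 0 with the stage fitted alone, with no stage weights or with the replicate block. In eggs 3 became 0 with no stage weights. In late 1-cell embryos 4 became 1 with no filter, with the stage alone or with the replicate block, 2 with TPM scaling or median centring, and 0 with no stage weights. In early 2-cell embryos 3 became 1 with TPM scaling, the stage alone or the replicate block, and 6 with no stage weights, a fit that understates the spread of this stage. From control eggs to late 1-cell embryos 5 became 2 with these stages alone, no stage weights or the replicate block, and from control late 1-cell to early 2-cell embryos 7 became 4 with the replicate block. For the late 1-cell to early 2-cell change of the knockout effect, 2 became 0 with a pseudocount of 0.1, TPM scaling, these stages alone or the replicate block, and 1 with a mean of at least 5 FPKM. From early to late 2-cell embryos that count of 1 became 2 with no stage weights. Between visceral endoderm and epiblast 2 became 1 with no filter and 5 with the replicate block, between extraembryonic ectoderm and epiblast 1 became 2 with the replicate block, and between both extraembryonic lineages 0 became 1 with median centring or the replicate block. The share of all genes called under alternatives was recorded only for the comparisons of knockout against control. The other counts here and in the next paragraph are therefore not read as results about the members.

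Leaving out each replicate in turn gave 1 to 2 members in oocytes, 1 to 3 in eggs, 0 to 2 in late 1-cell, 1 to 2 in early 2-cell and 5 in late 2-cell embryos. It gave 2 to 3 from control eggs to late 1-cell embryos, 1 to 2 for the changes of the knockout effect at both 2-cell steps, and 1 to 3 between visceral endoderm and epiblast. Calls over all genes ranged from 803 to 2271 in oocytes, 895 to 3408 in eggs, 1176 to 2889 in late 1-cell, 1193 to 4407 in early 2-cell and 3508 to 6419 in late 2-cell embryos. With no filter, 1426 genes were called between genotypes in extraembryonic ectoderm, beside 0.

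Where the causes are not stated, they were not tested. TPM scaling moved the median gene by 0.11 and 0.14 in the early and late 2-cell knockout contrasts and by -0.19 and -0.17 in the control steps to early and late 2-cell. Median centring moved it by 0.11 in eggs, -0.13 in epiblast and 0.17, 0.15 and -0.25 in the 3 later control steps. Same-numbered control and knockout libraries did not deviate together in early 2-cell embryos (r between -0.08 and 0.04), and the labels do not pair them. In epiblast and visceral endoderm r was 0.59 and 0.42. With 2 libraries per group, both pairs of a lineage necessarily give the same r, so each is a single value. A replicate block across lineages, chosen after seeing the data, kept the counts of 2, 1 and 0 for the lineage comparisons.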

Other observations

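Kdm5d, the Y-linked KDM5 gene, was listed above 0 in every total RNA library, including oocytes and eggs, which carry no Y chromosome. It was 0.250 and 0.266 FPKM in control and 0.622, 0.258 and 0.277 in knockout oocytes. The Y-linked Uty was listed at 0 in both control oocyte libraries, both control late 1-cell and all 3 knockout late 1-cell libraries. In late 2-cell embryos Uty was 2.61 and 2.11 FPKM in control and 1.13, 0.105 and 1.87 in knockout libraries, and Kdm5d was 0.960 and 1.10 against 0.436, 0.597 and 0.575 FPKM. The fall of Uty there (limma log2 fold change -0.83 ± 0.24, adjusted p = 0.0112) was lost in 5 of 13 alternatives, among them without control replicate 1 (0.105) or knockout replicate 2 (0.0509).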
